A study of Homo sapiens with 6 samples.

Results

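The insulin-like growth factor (IGF) genes of HGC-27 cells were examined after knockdown of ACAT2, the cytosolic acetyl-CoA thiolase. HGC-27 is an established line of undifferentiated human gastric carcinoma. Members were taken by gene symbol from the deposited table: the ligand IGF2, the receptors IGF1R and IGF2R, and the binding proteins IGFBP1 to IGFBP7. They made up 10 of the 58735 genes listed. RNA-seq compared 3 shACAT2 libraries with 3 shNC libraries, the reference, to find which transcripts differ when ACAT2 is depleted. The shACAT2 cells carried the short-hairpin plasmid pSIH-H1-Puro-shACAT2, and the shNC cells carried the control plasmid pSIH-H1-Puro-shNC. The labels give the genotype of the first as ACAT2 knockdown and of the second as WT. All 6 libraries came from HGC-27 cells that had been transfected for 24 h and then kept under puromycin for 7 days. The labels call the libraries biological replicates but do not say whether they came from separate cultures, from a pool or from a clone, nor which hairpin was used, so the p-values measure the spread between these libraries alone.

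IGF1 and IGF2 are secreted growth factors that signal through IGF1R, a receptor tyrosine kinase feeding the PI3K/AKT and MAP kinase pathways. IGF2R, the cation-independent mannose 6-phosphate receptor, lacks kinase activity, carries IGF2 to the lysosome and sorts lysosomal enzymes. IGFBP1 to IGFBP6 bind IGFs with high affinity and control how much ligand reaches the receptor, while IGFBP7 binds them weakly and is counted among the IGFBP-related proteins. In gastric and other carcinomas the system is known for its part in growth and survival.

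Levels are given as FPKM (fragments scaled for gene length and for library depth). The division takes gene length out of comparisons between genes, but not the trend with GC content described below. Fragments lying on genes ranged from 14086416 to 16067486 per library. ACAT2 itself was at 11.7 to 14.2 FPKM in the shNC libraries and at 5.46 to 6.19 FPKM in the shACAT2 libraries, a fall of the labelled target (log2 fold change −1.01, SE 0.10, limma adjusted p = 0.0059, and 0.0512 without shNC-3). Of its 4299 exon bases, 1458 are shared with SOD2-OT1, 1141 with SOD2 and 397 with TCP1. These genes lie on the opposite strand, and whether counting used strand is not given in the sources used here. Replicate pairs differed unequally: chi-square per gene was 1.75 for shNC-2 against shNC-3 and 13.7 to 52.3 for the remaining pairs within a group. In addition, 7477 genes had a fragment in shACAT2-3 alone, against 416 to 657 genes in each other library. VIM stood at 263 ± 25.6 FPKM in shNC and 406 ± 61.0 FPKM in shACAT2 (SD, n = 3), whereas the epithelial markers EPCAM, KRT8 and KRT18 and all 5 gastric gland markers examined stayed below 1 FPKM in every library. CDH1, the remaining epithelial marker of that list, was at 0.222, 0.120 and 0.141 FPKM in shNC and at 0.608, 0.828 and 1.15 FPKM in shACAT2, without overlap and under the level tested.

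Of the 10 members, 8 reached a mean of 1 FPKM in either group and were tested. IGFBP4 was the only member whose change passed an adjusted p of 0.05 (limma on log2(FPKM + 1), Benjamini-Hochberg over 13832 genes), 1 of 8 against 5.10% of all genes tested, or 3.30% as higher and 1.81% as lower. The libraries of the 2 groups did not overlap for IGFBP4 and IGFBP3, both higher in shACAT2, and overlapped for the other 6. Among all genes tested, 16.2% did not overlap and were higher in shACAT2, and 30.7% did not overlap in either direction. In the tested members, 6 fold changes pointed up and 2, those of both receptors, pointed down, with a median log2 fold change of 0.18 against 0.016 over all genes. No member passed the limits used in the study, an absolute log2 fold change above 1 with p below 0.05, which 1.50% of all genes did.

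**Figure D1:**
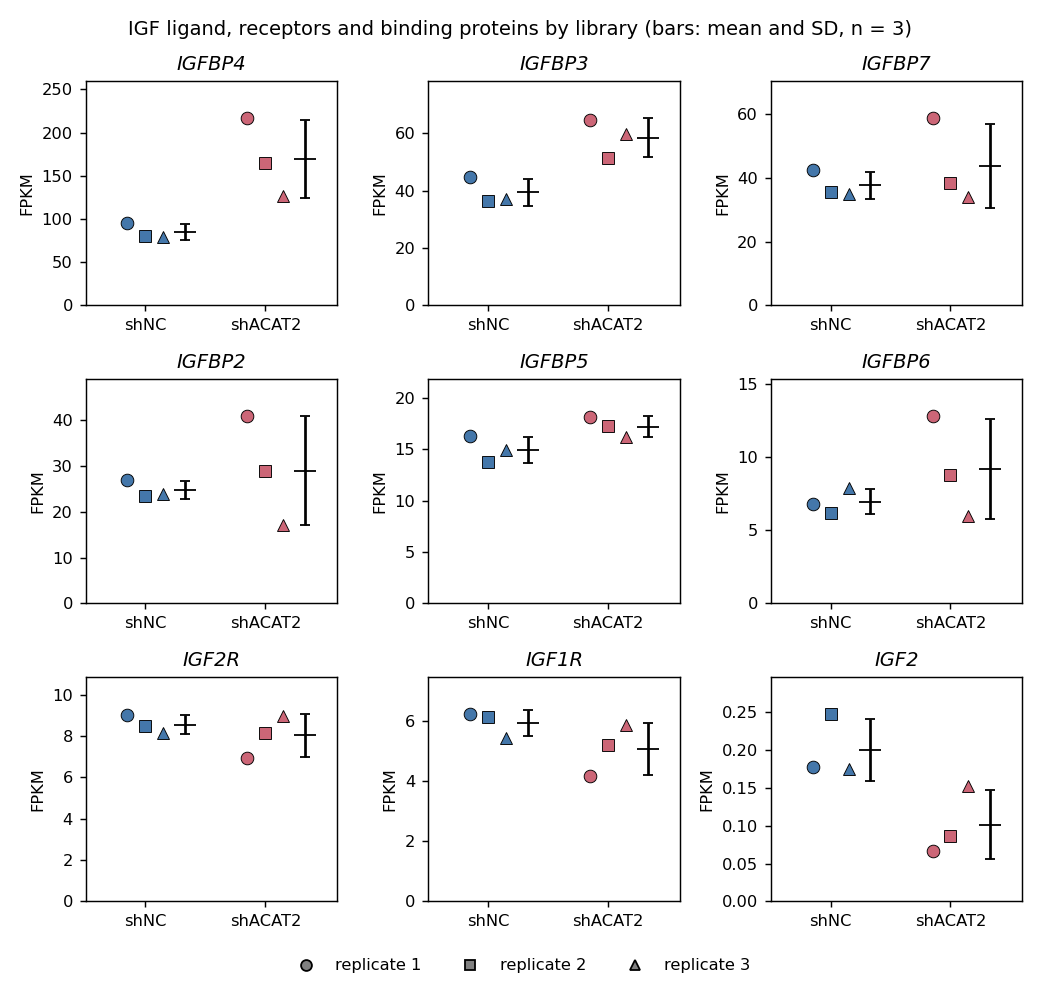
FPKM of 9 IGF genes in each library (points, with the shape giving the replicate number) and the mean with its SD (bars, n = 3), each panel on its own linear axis from 0; IGFBP1 is left out because it had 1 fragment in all. The shACAT2 points of IGFBP4 and IGFBP3 lie above all shNC points, and those of IGF2 lie below, at under 0.3 FPKM throughout.

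Ligand transcripts were scarce. IGF2 (ENSG00000167244, chr11:2129112-2149603, minus strand, GRCh38) was listed at 0.178, 0.247 and 0.175 FPKM in shNC-1 to shNC-3 and at 0.0661, 0.0862 and 0.153 FPKM in shACAT2-1 to shACAT2-3. These values stand for 19, 28 and 21 fragments against 7, 10 and 16, or 68 against 33 summed over each group. All shACAT2 libraries lay below all shNC libraries. A two-sided exact permutation test gave p = 0.1, the smallest that 3 against 3 allows, and the gene was under the level set for the test across genes. On the counts read back from the FPKM, with a filter that let IGF2 in, limma-voom gave a log2 fold change of −1.08 and an adjusted p of 0.131.

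The IGF2 level is uncertain in size. Of its 6979 exon bases, 5235 also lie in exons of other genes, including 5144 in a second IGF2 entry (ENSG00000284779), 1460 in the readthrough gene INS-IGF2 and 333 in IGF2-AS on the opposite strand. Both the second IGF2 entry and INS-IGF2 were at 0 in every library. How fragments on shared bases were counted is not given in the sources used here. If only the 1744 unshared bases could take up fragments, the same counts would correspond to 0.264 to 0.990 FPKM, which is still below the levels of IGF1R and IGF2R in every library. Of the other ligand genes, IGF1 had 0 to 6 fragments per library and INS had none, which allows up to 3 fragments in each, or up to 0.258 FPKM for INS. INSL4 was at 0.301, 0.253 and 0.178 FPKM in shNC and at 0.0675, 0 and 0.0341 FPKM in shACAT2, and was under the level tested.

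Neither receptor passed the test. IGF1R (ENSG00000140443, chr15:98648539-98964530, plus strand) stood at 6.21, 6.14 and 5.44 FPKM in shNC-1 to shNC-3. Its shACAT2 values were 4.15, 5.21 and 5.86 FPKM in the same order, so that the groups overlapped, with the lowest value in shACAT2-1. The means were 5.93 ± 0.424 and 5.07 ± 0.862 FPKM (SD, n = 3), with a log2 fold change of −0.20 (SE 0.13, 95% confidence interval −0.50 to 0.10, limma adjusted p = 0.389), and of −0.085 without shACAT2-1.

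For IGF2R (ENSG00000197081, chr6:159969099-160113507, plus strand) the values were 9.04, 8.50 and 8.13 FPKM in shNC-1 to shNC-3, against 6.97, 8.14 and 9.00 FPKM in shACAT2-1 to shACAT2-3. The 2 groups spanned much the same range. The log2 fold change was −0.09 (SE 0.11, 95% confidence interval −0.35 to 0.18, limma adjusted p = 0.692) and was 0.0016 without shACAT2-1. IGF2R lies 190043 bases from ACAT2 on chromosome 6, the gene targeted by the hairpin. Levels of IGF1R relative to IGF2R were 0.687, 0.722 and 0.669 in shNC and 0.596, 0.640 and 0.651 in shACAT2. This ratio was thus lower in every shACAT2 library than in every shNC library, by 0.14 on the log2 scale (two-sided exact permutation p = 0.1, the smallest possible here). INSR, the insulin receptor, which can pair with IGF1R, showed means of 2.10 ± 0.117 and 2.13 ± 0.0407 FPKM (SD, n = 3, limma adjusted p = 0.952).

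IGFBP4 was the most abundant member in both groups. Its product holds IGFs in the extracellular fluid and is cleaved by the protease PAPPA. IGFBP4 (ENSG00000141753, chr17:40443461-40457731, plus strand) stood at 96.0, 80.9 and 78.8 FPKM in shNC-1 to shNC-3 and at 216, 165 and 127 FPKM in shACAT2-1 to shACAT2-3. The lowest shACAT2 library was above the highest shNC library. Means were 85.2 ± 9.37 and 169 ± 45.0 FPKM (SD, n = 3), a ratio of 1.99, and the gene rose by a log2 fold change of 0.95 (SE 0.20, 95% confidence interval 0.47 to 1.43, limma adjusted p = 0.0464). Between 2886 and 7226 fragments lay behind each value.

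The call for IGFBP4 was near the threshold. Its adjusted p in limma was 0.112, 0.180 and 0.187 without shNC-1, shNC-2 or shNC-3 and 0.138 without shACAT2-2. It was 0.0430 without shACAT2-1 and 0.0214 without shACAT2-3. With no filter on low values it was 0.147, and 0.182 once shNC-2 and shNC-3 were merged into their mean. The log2 fold change ranged from 0.76 to 1.15 over the fits that left out a library, so IGFBP4 was higher in shACAT2 in all of them.

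IGFBP3, the main IGF carrier of serum, came next. IGFBP3 (ENSG00000146674, chr7:45912245-45921874, minus strand) stood at 44.8, 36.4 and 37.0 FPKM in shNC-1 to shNC-3 and at 64.5, 51.4 and 59.8 FPKM in shACAT2-1 to shACAT2-3. Here too the groups were apart. Means were 39.4 ± 4.66 and 58.6 ± 6.65 FPKM (SD, n = 3), a ratio of 1.49, with a log2 fold change of 0.56 (SE 0.14, 95% confidence interval 0.24 to 0.88) and a limma adjusted p of 0.0640. With the replicate number as a block, an assumed pairing described with the processing, limma gave an adjusted p of 0.0251 for IGFBP3 and 0.0227 for IGFBP4. That fit called 12.5% of all genes, 7.67% as higher. Markers of fibroblasts, cells that also make IGFBPs, moved in the same direction. Of 5 markers 4 were tested, and COL1A1, DCN and LUM passed the test as higher. COL3A1 also lay higher in shACAT2 without overlap, at a mean of 297 against 213 FPKM, but did not pass (limma adjusted p = 0.0916). PDGFRB was not tested, with overlapping groups and means of 0.686 FPKM in shNC and 0.926 FPKM in shACAT2. The summed level of the list, mostly COL3A1, was 301 to 335 FPKM in shNC and 439 to 531 FPKM in shACAT2. The part of these markers in the IGFBP result was not tested. In bulk libraries more cells expressing a gene and more RNA per cell cannot be told apart. The defining endothelial, leukocyte and hepatocyte markers were all below 1 FPKM in every library.

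The promoters of these 2 genes are shown because they belong to the tested members whose groups did not overlap. Each sequence is the 250 bases before a RefSeq transcript start (GRCh38.p14), written 5′ to 3′ on the strand of the gene. Capitals mark TATAAA or TATATA and the GC box GGGCGG, the latter as GGGCGG or, on the other strand, as CCGCCC.
IGFBP4, chr17:40443200-40443449, plus strand: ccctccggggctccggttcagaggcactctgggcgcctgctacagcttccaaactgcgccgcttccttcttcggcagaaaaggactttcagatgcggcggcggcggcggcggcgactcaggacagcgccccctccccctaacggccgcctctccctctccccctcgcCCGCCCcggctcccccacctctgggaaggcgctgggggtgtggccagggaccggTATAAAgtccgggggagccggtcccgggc
IGFBP3, chr7:45921273-45921522, minus strand: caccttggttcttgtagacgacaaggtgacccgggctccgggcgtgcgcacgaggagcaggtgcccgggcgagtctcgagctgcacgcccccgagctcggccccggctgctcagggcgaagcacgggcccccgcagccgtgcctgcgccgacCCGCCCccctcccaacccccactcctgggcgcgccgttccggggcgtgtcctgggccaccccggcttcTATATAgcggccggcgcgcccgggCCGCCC
Both hold a TATA-type hexamer close to the start, TATAAA beginning at −29 in IGFBP4 and TATATA beginning at −30 in IGFBP3, where −1 is the last base before the start. Of 35116 RefSeq windows of 300 bases (250 before and 50 after a start), 11.5% hold TATAAA, 3.99% hold TATATA and 45.0% hold GGGCGG, searched on both strands. GC content of the printed stretches was 71.6% for IGFBP4 and 76.0% for IGFBP3.

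IGF2, IGFBP1 and IGFBP7 had no window. Windows were found for the other 7 of the 10 members, 9 windows in all. None of those of IGF1R, IGF2R, IGFBP2, IGFBP5 and IGFBP6 held TATAAA or TATATA. IGF2R held GGGCGG 6 times and the E-box CACGTG 3 times, and 7.26% of all windows hold CACGTG. The TEAD-type motif GGAATG, present in 14.0% of all windows, occurred 1 time each in IGFBP5 and IGFBP6, and TGANTCA, the AP-1 motif present in 7.71%, in none of the 9. These are matches of letters and say nothing on binding.

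Library values of IGFBP7, IGFBP2, IGFBP5 and IGFBP6 overlapped between the groups, and none of these genes passed the test. IGFBP7 (ENSG00000163453, chr4:57030773-57110385, minus strand), the low-affinity relative that cells deposit in the matrix, stood at 42.5, 35.5 and 34.9 FPKM in shNC-1 to shNC-3 and at 58.6, 38.4 and 33.9 FPKM in shACAT2-1 to shACAT2-3. Only shACAT2-1 was above the shNC range. The log2 fold change was 0.17 (SE 0.21, 95% confidence interval −0.32 to 0.67, limma adjusted p = 0.666) and was −0.054 without shACAT2-1. Of its exon bases, 270 are shared with POLR2B and 94 with IGFBP7-AS1, both on the opposite strand, and whether counting used strand is not given in the sources used here.

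IGFBP2 (ENSG00000115457, chr2:216632828-216664436, plus strand), whose product can also bind integrins, had the largest SD of the 8 tested members among the shACAT2 libraries on the log2(FPKM + 1) scale (0.610). It stood at 26.9, 23.4 and 23.8 FPKM in shNC-1 to shNC-3 and at 40.7, 28.8 and 17.0 FPKM in shACAT2-1 to shACAT2-3. The shACAT2 values thus ran from above to below the whole shNC range. The log2 fold change was 0.14 (SE 0.28, 95% confidence interval −0.54 to 0.81, limma adjusted p = 0.817) and was −0.15 without shACAT2-1.

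IGFBP5 (ENSG00000115461, chr2:216672105-216695525, minus strand), a matrix-binding member, lies 7668 bases from IGFBP2. Its values were 16.3, 13.7 and 14.9 FPKM in shNC-1 to shNC-3, against 18.2, 17.3 and 16.2 FPKM in shACAT2-1 to shACAT2-3. The lowest shACAT2 value fell just under the highest shNC value. With a log2 fold change of 0.19 (SE 0.10, 95% confidence interval −0.05 to 0.44, limma adjusted p = 0.314), IGFBP5 had a narrower interval than IGFBP2. An antisense gene, AC007563.2, shares 298 of its exon bases.

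IGFBP6 (ENSG00000167779, chr12:53097436-53102345, plus strand) prefers IGF2 over IGF1. It stood at 6.80, 6.19 and 7.89 FPKM in shNC-1 to shNC-3 and at 12.8, 8.76 and 5.99 FPKM in shACAT2-1 to shACAT2-3, on 121 to 261 fragments. The shACAT2 range enclosed the shNC range. The log2 fold change was 0.31 (SE 0.24, 95% confidence interval −0.26 to 0.87, limma adjusted p = 0.488), and was 0.060 without shACAT2-1 and 0.55 without shACAT2-3.

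IGFBP1 (ENSG00000146678, chr7:45888357-45893668, plus strand), a liver-made binding protein under insulin control, was at the limit of detection. It had 1 fragment in shACAT2-3 and 0 in the other 5 libraries. A count of 0 allows up to 3 fragments, which corresponds to 0.105 to 0.121 FPKM in these libraries and covers counting error only. IGFBP1 lies 18576 bases from IGFBP3 on chromosome 7, whose level was between 36.4 and 64.5 FPKM.

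**Figure D2:**
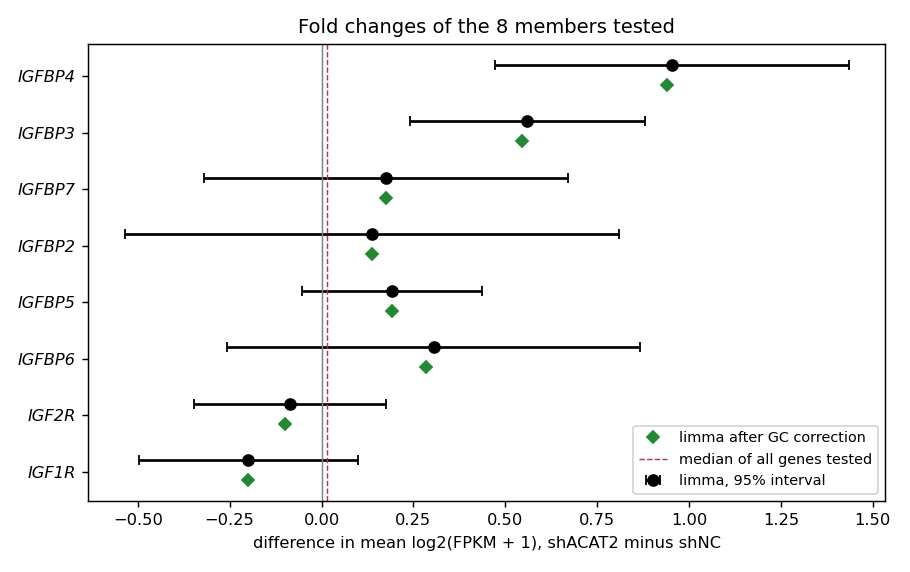
Log2 fold change (shACAT2 minus shNC, in mean log2(FPKM + 1)) of the 8 tested members with 95% confidence intervals from limma (black points and bars), the same after GC correction (green diamonds) and the median of all genes tested (dashed line). The intervals of IGFBP4 and IGFBP3, not adjusted for the number of genes, lie clear of 0, with fold changes of 0.95 and 0.56. Those of the other 6 include 0. An unadjusted limma p below 0.05 was reached by 2 of the 8 members and by 23.5% of all genes tested.

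Ordered by mean FPKM, the shNC libraries gave IGFBP4, IGFBP3, IGFBP7, IGFBP2, IGFBP5, IGF2R, IGFBP6, IGF1R, IGF2 and IGFBP1. Neighbours in this order had separate ranges except IGFBP3 with IGFBP7 and IGFBP6 with IGF1R. In shACAT2 the order differed only in that IGFBP6 preceded IGF2R, 2 genes whose ranges there overlapped. Ranges in shACAT2 also overlapped between IGFBP3 and IGFBP7, between IGFBP7 and IGFBP2, and between IGFBP2 and IGFBP5.

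Summed over IGFBP1 to IGFBP7, binding-protein transcripts came to 233, 196 and 197 FPKM in shNC-1 to shNC-3 and to 411, 310 and 260 FPKM in shACAT2-1 to shACAT2-3. The groups were apart, with means of 209 ± 21.0 and 327 ± 77.2 FPKM (SD, n = 3) and a ratio of 1.56 (two-sided exact permutation p = 0.1, the smallest 3 against 3 allows). Among these transcripts IGFBP4 took 41.2%, 41.2% and 39.9% in shNC and 52.6%, 53.3% and 48.8% in shACAT2. All shACAT2 shares were above all shNC shares, with means of 40.8% ± 0.737 and 51.6% ± 2.42 (SD, n = 3, exact permutation p = 0.1).

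Shares of the other binding proteins are tied to that of IGFBP4, since all add up to the same whole. The mean share went from 18.0% to 13.2% for IGFBP7, from 11.8% to 8.59% for IGFBP2 and from 7.18% to 5.42% for IGFBP5, each without overlap between the groups (exact permutation p = 0.1 each). For IGFBP3 the mean share was 18.8% in shNC and 18.4% in shACAT2 (exact permutation p = 1.0), and for IGFBP6 it was 3.35% and 2.75% (exact permutation p = 0.2). These were 9 measures of composition, including the ratio of the receptors, and the design cannot bring any of them under 0.1.

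**Figure D3:**
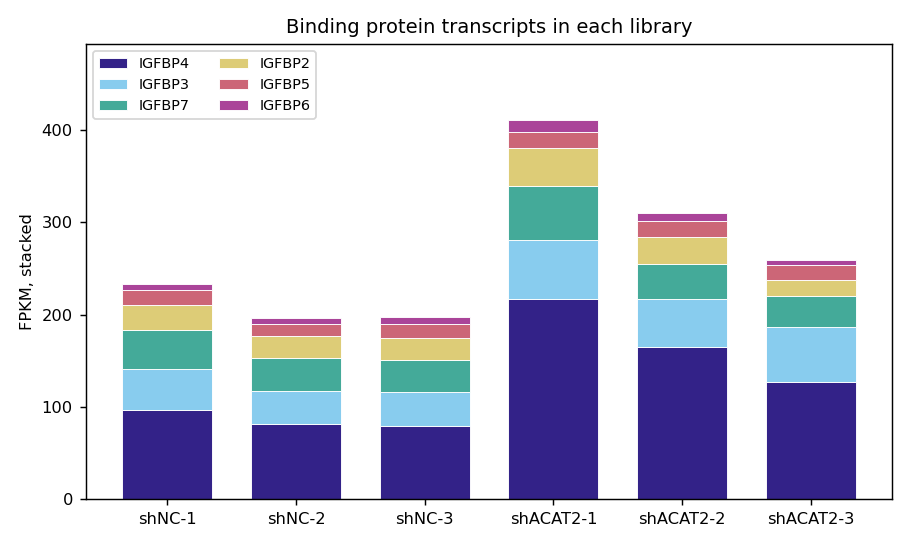
Summed FPKM of IGFBP1 to IGFBP7 in each library, stacked by gene from 0; IGFBP1, with 1 fragment in all, is not drawn. Bars of the shACAT2 libraries reach 260 to 411 FPKM against 196 to 233 FPKM in shNC, and the IGFBP4 segment makes up 48.8% to 53.3% of them against 39.9% to 41.2%.

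The spread within shACAT2 had a common order in most members, though not in IGFBP3, which was lowest in shACAT2-2. IGFBP2, IGFBP4, IGFBP5, IGFBP6 and IGFBP7 were highest in shACAT2-1 and lowest in shACAT2-3, while IGF2, IGF1R and IGF2R were lowest in shACAT2-1 and highest in shACAT2-3. Differences between these 2 libraries on the log2 scale were 1.21 for IGFBP2, 0.98 for IGFBP6, 0.77 for IGFBP7, 0.77 for IGFBP4, 0.16 for IGFBP5, 0.11 for IGFBP3, −0.33 for IGF2R and −0.41 for IGF1R. Over all tested genes the same difference moved with GC content: its median was −0.28, −0.12, 0.043, 0.27 and 0.53 in 5 equal bins of genes from lowest to highest GC. Between shNC-1 and shNC-3 the medians were −0.22, −0.065, 0.094, 0.16 and 0.19.

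GC content of the transcripts was 64.1% for IGFBP6, 62.5% for IGFBP4, 57.1% for IGFBP2 and between 49.4% and 52.1% for the other tested members. IGF2, which was not tested, was at 60.4% but lowest in shACAT2-1, on 7 fragments. Once the GC trend was removed from each library, an alternative chosen after seeing the data, the SD of IGFBP4 among the shACAT2 libraries went from 0.384 to 0.105 on the log2 scale. That of IGFBP6 went from 0.489 to 0.183, that of IGFBP2 from 0.610 to 0.429 and that of IGFBP7 from 0.405 to 0.300. The SD of IGF1R went the other way, from 0.210 to 0.306, and that of IGF2R from 0.165 to 0.223.

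After the correction the log2 fold change was 0.94 for IGFBP4 (SE 0.08, limma adjusted p = 0.00126) and 0.55 for IGFBP3 (SE 0.09, limma adjusted p = 0.0109). With the replicate block added, the adjusted p was 0.00483 for IGFBP4 and 0.0130 for IGFBP3. The corrected fit called 16.5% of all genes, 9.23% as higher, and with the block 20.5%, 11.2% as higher. No other member passed the test in either fit.

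**Figure D4:**
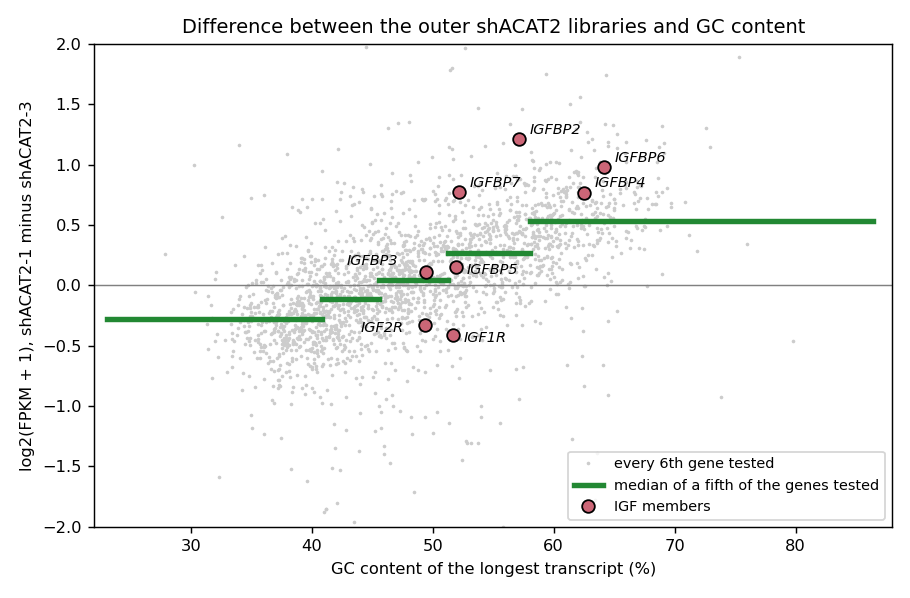
Log2 difference between shACAT2-1 and shACAT2-3 against transcript GC content (percent): the medians of all tested genes in 5 bins as green lines, every 6th tested gene as a grey dot (the axis ends at −2 and 2) and the 8 tested members as red points. The median climbs from −0.28 in the lowest bin to 0.53 in the highest, and IGFBP2 lies farthest above 0, at 1.21.

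Genes around the members were taken from a list of 83 genes of the IGF pathway, of which 56 were tested. Of these 7 passed the adjusted p, 3 higher and 4 lower, or 12.5% of those tested against 5.10% of all genes. The list was chosen with earlier results of these data known, so the difference between these shares is not a test of the pathway. The median log2 fold change was −0.018. Among relatives that share the IGFBP fold, 3 of 6 tested passed, all of them higher in shACAT2: CTGF from 2.24 ± 0.824 to 7.55 ± 1.10 FPKM, CYR61 from 13.1 ± 0.872 to 33.5 ± 7.31 FPKM, and NOV from 6.79 ± 0.597 to 14.3 ± 0.282 FPKM (means ± SD over 3 libraries). These are matricellular CCN proteins, and CTGF and CYR61 are textbook targets of YAP and TAZ. On the log2 scale CTGF rose by 1.42 (limma adjusted p = 0.0133), CYR61 by 1.28 (adjusted p = 0.0107) and NOV by 0.98 (adjusted p = 0.0052). When each library was left out in turn, NOV passed in 6 of 6 fits, CTGF in 4 (not without shACAT2-2 or shNC-3) and CYR61 in 2 (not without shACAT2-2 or any shNC library). Across these fits the log2 fold changes stayed at or above 0.91. IGFBPL1, another relative, had a log2 fold change of −0.41 (limma adjusted p = 0.131), with 15.8 ± 0.814 FPKM in shACAT2 below 21.5 ± 3.73 FPKM in shNC (SD, n = 3) and no overlap between the groups.

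Of the 3 IGF2 mRNA-binding proteins, which bind and stabilise IGF2 and other transcripts, 2 passed, both lower in shACAT2. IGF2BP1 fell from 23.8 ± 1.23 to 16.1 ± 0.276 FPKM and IGF2BP2 from 17.9 ± 0.480 to 12.3 ± 0.686 FPKM (SD, n = 3). On the log2 scale these were changes of −0.53 for IGF2BP1 (limma adjusted p = 0.0250) and −0.50 for IGF2BP2 (adjusted p = 0.0291). IGF2BP3 had a log2 fold change of 0.31 and overlapping groups (limma adjusted p = 0.362). CTGF, NOV and CYR61 aside, the list's other calls were RPTOR, the raptor subunit of the TOR complex, and GGA3, an adaptor that moves mannose 6-phosphate receptors from the Golgi. RPTOR fell from 9.47 ± 0.478 to 6.74 ± 0.269 FPKM (log2 fold change −0.44, limma adjusted p = 0.0376), and GGA3 from 9.81 ± 0.690 to 6.47 ± 0.418 FPKM (log2 fold change −0.53, limma adjusted p = 0.0280). Leaving out each library in turn, IGF2BP1 and IGF2BP2 passed only in the 2 fits without shACAT2-1 or shACAT2-3, and RPTOR and GGA3 only in the 1 fit without shACAT2-1. The adjusted p over these fits ranged from 0.0266 to 0.166.

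In the first limma fit, with neither the replicate block nor the GC correction, the other groups of the list had no call besides RPTOR and GGA3. None of 3 tested proteases, inhibitors and carriers of IGFBPs passed: HTRA1, a protease that cleaves IGFBPs, had a log2 fold change of 0.46 (limma adjusted p = 0.134, and 0.0266 with the block), and the PAPPA inhibitors STC1 and STC2 had −0.29 and −0.24. PAPPA itself, the IGFBP4 protease, was at 0.0871 ± 0.0417 and 0.0798 ± 0.0206 FPKM (SD, n = 3), under the level tested. Of the receptor adaptors and phosphatases 0 of 11 passed, with IRS1 at a log2 fold change of −0.24 (limma adjusted p = 0.270). Of the FOXO target genes 0 of 5 passed, and of the PI3K, AKT, TOR and FOXO genes RPTOR was the only call among 19. With the replicate block 12 of the 56 tested genes of the list passed and with the GC correction 14, where those fits called 12.5% and 16.5% of all genes. The 5 genes that the block added were HTRA1, CRIM1, SOS1 (adjusted p = 0.0346, log2 fold change −0.44), CITED2 (adjusted p = 0.0337, log2 fold change 0.38) and RHEB (adjusted p = 0.0309, log2 fold change 0.50). The GC correction added HTRA1, CRIM1, SOS1, RHEB, AKT2, FOXO1 and GGA1.

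**Figure D5:**
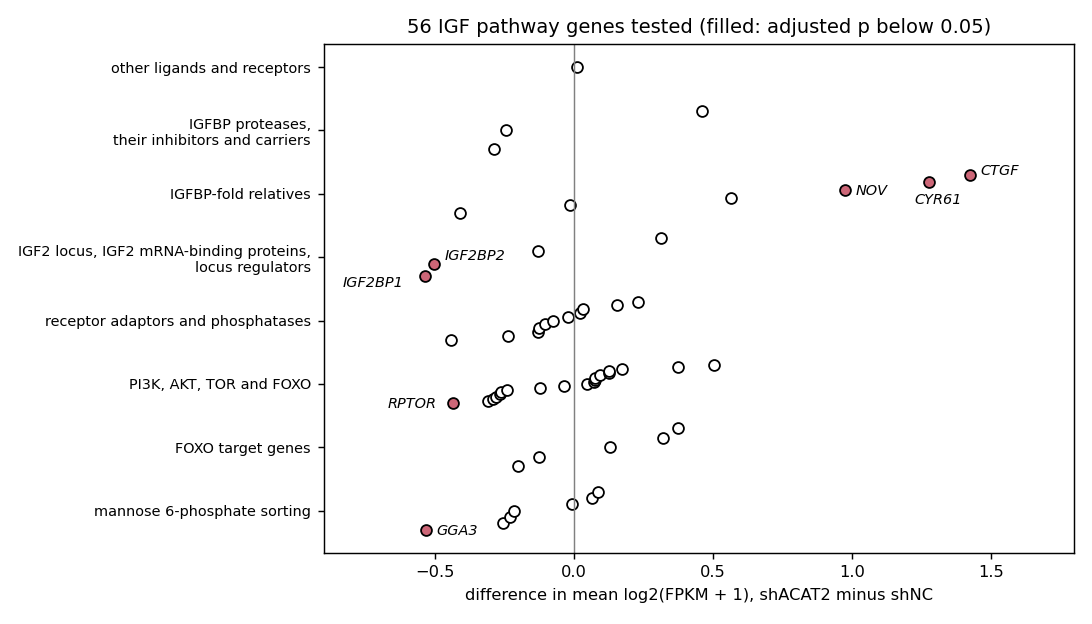
Log2 fold change (shACAT2 minus shNC) of the 56 tested genes of the IGF pathway list by group, with filled points for an adjusted p below 0.05. NOV, CYR61 and CTGF lie farthest right, at 0.98 to 1.42, and IGF2BP1, GGA3, IGF2BP2 and RPTOR lie at −0.53 to −0.44.

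The genes most like IGFBP4 across the 6 libraries, by Pearson's r of log2(FPKM + 1), were CAPG (0.999), BCL2L1 (0.998) and VASN (0.998), given as a description since the 6 points share libraries and GC trend. CAPG went from 4.74, 3.76 and 3.60 FPKM in shNC-1 to shNC-3 to 11.7, 9.14 and 6.54 FPKM in shACAT2-1 to shACAT2-3. Each of the 3 genes is GC-rich like IGFBP4, at 60.1%, 56.9% and 66.2%.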

How the data were processed

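RNA-seq was analysed for 6 libraries of HGC-27 cells, 3 shNC and 3 shACAT2, grouped and numbered by their titles. The authors deposited FPKM values for 58735 genes. The submitters' processing notes name HISAT2 2.0.5, featureCounts 1.5.0-p3, DESeq2 1.20.0 and hg38; their roles, the annotation release and the strand setting are not given in the sources used here. Start and end of 58724 genes equal those of GENCODE 29, which supplied the exons, with gene lengths. Fragments were read back as FPKM times length, and 100% were whole within 0.05 fragments.

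The 13832 genes whose mean reached 1 FPKM in shNC or in shACAT2 were tested with limma-trend (limma 3.58.1 in R 4.3.3). Values were taken as log2(FPKM + 1), a scale that understates the fold change of low genes, with Benjamini-Hochberg adjustment over all of them. The design had allowed for count data and, the values being FPKM, its limma form was used. The script was tested on simulated data. Single values were compared by two-sided exact permutation tests (Python 3.11.15, scipy 1.17.1).

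The members, the pathway list and the marker lists were chosen with earlier results of these data known. Genes were named by rule: all members, ACAT2, pathway genes past an adjusted p of 0.05, and the 3 genes most correlated with the member of lowest p; other pathway genes, given for their role, were chosen after their values were seen. Pairing the libraries by the number in their titles was an assumption, used in an alternative fit. Deviations from the group means correlated at 0.445, 0.126 and 0.171 between same-numbered libraries (13832 genes). Only the first stood out, since shNC-2 with shACAT2-3 reached 0.198 and shNC-3 with shACAT2-2 reached 0.141. These correlations come from the same data as the fit and do not establish the pairing. The fit with the replicate number as a block gave 2 called members. Alternatives were other scalings, filters, a pseudocount of 0.1, limma-voom on the fragments, shNC-2 and shNC-3 averaged and each library left out; a GC correction (lowess, span 0.3, on 13823 genes with a GC value of their longest transcript) was added after seeing the data. Promoter sequences came from RefSeq (GRCh38.p14).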

Additional observations from a re-analysis of the deposited data

How the results depend on the processing

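Without a filter on low values the count of IGF members past the adjusted p went from 1 to 0 (2 at an unadjusted p below 0.05), that of the pathway list from 7 to 2 and that of all genes from 706 to 209. Averaging the close libraries shNC-2 and shNC-3 gave 0, 1 and 83. Leaving out each library in turn gave 0 to 1 members, 1 to 9 pathway genes and 63 to 862 genes in all, lowest without shNC-3. The replicate block, which pairs same-numbered libraries, gave 2 members, 12 pathway genes and 1727 genes, and the block made no tested member lose its call. GC correction gave 2, 14 and 2283, and with the block 2, 15 and 2835. Scaling to the fragments on genes, at least 10 fragments in every library and limma-voom with either filter gave 2 members each, IGFBP3 joining IGFBP4, and limma-voom called 1167 and 1260 genes in all.

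Past the limits of the study, limma-voom with the wider filter put 1 member, IGF2, and leaving out 1 library put 0 to 1, IGFBP4, without shACAT2-3 or shNC-1. Leaving out a library put the log2 fold change between −0.16 and 0.0016 for IGF2R, between −0.15 and 0.46 for IGFBP2 and between −0.054 and 0.33 for IGFBP7. In each the sign turned without shACAT2-1, and none of the 3 passed the test in any fit. The cause of these shifts was not tested. IGFBP4 stayed between 0.76 and 1.15 and IGFBP3 between 0.49 and 0.65 on the log2 scale over 17 alternatives, with adjusted p of 0.00126 to 0.187 and 0.0109 to 0.253. The summed IGFBP level kept its direction in all 9 alternatives run on it, with differences of 75.8 to 152 FPKM. Precision is limited by 3 libraries per group, and for IGF2 and IGFBP1 also by 28 fragments or fewer in each library.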

Other observations

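Some genes of the pathway list were at or near 0. IRS2, a docking protein of IGF1R, had 2 fragments in shACAT2-1, 2 in shACAT2-3 and 0 in the other libraries. A count of 0 allows up to 3 fragments per library, or at most 0.0246 FPKM for IRS2. ADAM28, WISP1, ESM1 and INSL3 had between 0 and 4 fragments in every library. H19, the imprinted neighbour of IGF2, was listed at 0.609, 0.170 and 0.300 FPKM in shNC-1 to shNC-3 and at 1.21, 0.768 and 0.782 FPKM in shACAT2-1 to shACAT2-3. Its groups did not overlap, and it was under the level tested. The cause of these values was not tested.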
